A study of Mus musculus with 20 samples.

Results

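The genes described here are 44 genes of the cell cycle, taken by symbol from the count table of liver RNA, which holds 55487 gene identifiers. All 44 were found. By the phase in which their products are known to act, 19 were set as S phase genes (the enzymes and licensing factors of DNA replication, and the factors E2f1, E2f8 and Mybl2), 23 as G2/M genes (cyclins, kinases and spindle proteins of mitosis), and Ccnd1 and Cdkn1a as genes of G1 control. Their levels were measured by RNA sequencing in the livers of 20 female C57BL/6J mice, with 1 library per mouse. The mice were 8 weeks old at the start and 28 weeks old at sampling. Chow-fed mice (n = 5) stayed on chow throughout. The other 15 mice were fed a high-fat diet (HFD) for 10 weeks and then, for another 10 weeks, an HFD of equal energy in which 50% of the protein came from fishmeal made of salmon by-products (n = 5), from salmon filet (n = 6 by the sample labels) or from beef (n = 4 by the labels), with casein as the rest. No allele or drug was involved. The sequenced mice were picked from larger groups as representative of their diet.

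A dividing cell makes these RNAs in waves. At the exit from G1, cyclin D1 with its kinases frees E2F factors, which switch on the genes of DNA synthesis: the Mcm2 to Mcm7 helicase, its loaders Cdc6 and Cdt1, the sliding clamp Pcna, and the enzymes Rrm1, Rrm2, Tyms and Tk1 that supply nucleotides. Later, complexes of B-Myb (Mybl2) and Foxm1 switch on the genes of mitosis, such as Cdk1, the A and B cyclins, Plk1, the Aurora kinases and the proteins of the spindle and kinetochore. Hepatocytes of an adult liver rarely divide, so these RNAs are normally scarce there. Hepatocytes that become polyploid also pass through S phase, and E2f8 is known as a factor of that process.

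Genes of the 2 phases are known to carry different short motifs near their starts, and promoters are shown here for that reason. Promoters of 36 of the 44 genes were matched in RefSeq (mouse build GRCm38.p6, from 250 bases before to 50 bases after the first start). The cell cycle homology region CHR, searched as TTTGAA on both strands, was in 13 of 18 G2/M promoters (72.2%), in 2 of 17 S phase promoters (11.8%, Mcm2 and E2f8) and in 18.1% of the promoters of 27025 genes. The CCAAT box, bound by NF-Y, was in 16 of 18 G2/M promoters (88.9%), 10 of 17 S phase promoters (58.8%) and 37.9% of all. The E2F motif, searched as TTTGGCGC, TTTCCCGC, TTTCGCGC or TTTGCCGC on both strands, was in 6 of 17 S phase promoters (35.3%: Cdc6, Cdt1, Mcm3, Mcm5, Mcm6 and Mcm7), in 1 G2/M promoter (5.56% of 18, Cdk1) and in 2.32% of all. A match is a run of letters and was not tested as a binding site. The promoters of Cdk1, Top2a and Ect2 stand for the G2/M genes and those of Mcm6 and Cdc6 for the S phase genes. They are written 5′ to 3′ along the gene, with every CHR, CCAAT and E2F match of either strand in capitals.
Cdk1 chr10:69352863-69353162 (minus strand): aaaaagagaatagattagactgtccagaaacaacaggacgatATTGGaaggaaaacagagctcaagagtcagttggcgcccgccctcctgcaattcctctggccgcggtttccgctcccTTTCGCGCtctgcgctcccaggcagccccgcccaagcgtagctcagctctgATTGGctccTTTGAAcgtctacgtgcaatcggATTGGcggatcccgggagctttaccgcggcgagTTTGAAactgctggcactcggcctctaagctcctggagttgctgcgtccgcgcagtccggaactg
Top2a chr11:99024140-99024439 (minus strand): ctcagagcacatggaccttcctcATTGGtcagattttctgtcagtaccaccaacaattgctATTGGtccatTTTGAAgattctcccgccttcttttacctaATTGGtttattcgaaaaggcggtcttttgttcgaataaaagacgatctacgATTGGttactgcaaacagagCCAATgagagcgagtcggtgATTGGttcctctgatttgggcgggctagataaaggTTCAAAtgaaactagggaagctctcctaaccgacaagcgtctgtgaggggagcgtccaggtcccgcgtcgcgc
Ect2 chr3:27153829-27154128 (minus strand): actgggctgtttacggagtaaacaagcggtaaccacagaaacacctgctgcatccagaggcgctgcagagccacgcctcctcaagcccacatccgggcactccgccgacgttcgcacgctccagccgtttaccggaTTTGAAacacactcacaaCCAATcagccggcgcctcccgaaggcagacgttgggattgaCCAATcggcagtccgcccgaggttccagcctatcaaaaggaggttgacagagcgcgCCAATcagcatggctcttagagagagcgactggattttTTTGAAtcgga
Mcm6 chr1:128359656-128359955 (minus strand): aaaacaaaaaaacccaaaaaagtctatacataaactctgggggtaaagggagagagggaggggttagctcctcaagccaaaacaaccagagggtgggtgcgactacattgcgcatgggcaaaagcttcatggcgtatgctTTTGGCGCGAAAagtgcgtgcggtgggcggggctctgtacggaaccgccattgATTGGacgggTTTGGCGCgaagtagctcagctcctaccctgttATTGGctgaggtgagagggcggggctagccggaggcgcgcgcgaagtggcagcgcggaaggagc
Cdc6 chr11:98907901-98908200 (plus strand): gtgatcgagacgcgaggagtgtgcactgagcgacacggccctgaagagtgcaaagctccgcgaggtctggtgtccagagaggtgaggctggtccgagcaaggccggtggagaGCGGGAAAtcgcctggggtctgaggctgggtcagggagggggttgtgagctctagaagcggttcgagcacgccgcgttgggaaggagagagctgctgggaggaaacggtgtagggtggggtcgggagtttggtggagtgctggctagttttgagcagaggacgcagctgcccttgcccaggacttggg
In Cdk1 the matches nearest to the start were a CCAAT box at -48 and a CHR at -15, counted from the annotated start to the first base of the match. Top2a held 6 CCAAT boxes and 2 CHR, the nearer at -23. Mcm6 held 3 E2F matches, 2 of which overlap and the last of which is at -47, beside 2 CCAAT boxes. Cdc6 held 1 match in all, an E2F motif at -138 from its RefSeq start. In GENCODE M21 the Cdc6 gene begins at base 98907801, before the printed window, so the window does not cover the region upstream of that start.

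Before the results, one label has to be named. Mouse 31 is a salmon filet mouse in the sample labels and a beef mouse in the column header of the count table. As beef it gives 5 mice to each diet, which is the number the study states were sequenced per diet. The header and the study thus both place mouse 31 with beef, against its label. Groups were taken from the sample labels, and the calls for these diets are also given with mouse 31 counted as beef. The libraries held 42526234 to 70266136 counts on genes. Protein coding genes took 93.2% to 95.6% of them, apart from 84.3% in mouse 35. Levels are given as CPM (counts scaled to library size, with TMM factors). Albumin (Alb), the leading hepatocyte product, was at 70400 CPM or more in every library, and the lowest of the 5 hepatocyte markers, Serpina1a, was at 935 CPM or more. Among markers of other cells, edgeR called 5 of 7 T cell genes, 5 of 5 B cell genes, 2 of 6 sinusoidal endothelial genes and 1 of 5 cholangiocyte genes lower in HFD-fed mice, and 2 of 7 erythroid genes and 1 of 2 tested exocrine pancreas genes (Cela1) higher. The pancreas list held 6 genes, of which Cpa1, Prss2, Pnlip and Amy2a5 had 0 counts in 17 to 20 of the 20 libraries. The marker lists of hepatocytes, Kupffer cells, stellate cells, plasma cells and neutrophils had median log2 fold changes of 0.11, -0.31, 0.13, -0.28 and -0.64, the last 2 from 1 and 2 genes tested. In bulk tissue, fewer cells of a type and less RNA per cell cannot be told apart. Each library came from its own mouse, so p-values measure the spread between mice.

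The cell cycle genes were weakly expressed, and the mitotic genes most weakly. In TPM, the authors' unit that allows for transcript length and library size, 12 of 19 S phase genes and 0 of 23 G2/M genes had a mean above 1 over the 20 mice. Ccnd1, the cyclin of G1, was the highest of all 44 genes at 41.6 ± 15.3 TPM (SD, n = 20). Pcna, the replication clamp, followed at 22.2 ± 2.30 TPM, then Tk1, the thymidine kinase of the cytosol, at 11.6 ± 4.28 TPM and Cdkn1a, which encodes the kinase inhibitor p21, at 10.1 ± 6.44 TPM. Within the S phase list the lowest was Cdc6 at 0.131 ± 0.0648 TPM. Among G2/M genes the highest were Ect2, a guanine exchange factor of cytokinesis, at 0.847 ± 0.350 TPM and the proliferation marker Mki67 at 0.819 ± 0.383 TPM. Cenpf, a kinetochore protein, was the lowest at 0.0686 ± 0.0471 TPM. The counts behind the low genes were small. Bub1, a checkpoint kinase, had 1 to 20 reads per library and Cdc20, an activator of the anaphase complex, had 4 to 38. Mki67 had 70 to 389 reads and Pcna 879 to 1607.

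The mitotic genes, which were also lower in level, differed more from mouse to mouse than the replication genes. In each diet group a single mouse was highest for most of the mitotic genes. The 23 G2/M genes together reached 25.1, 31.2, 14.3, 20.0 and 14.9 CPM in chow-fed mice 1, 2, 5, 7 and 10. In fishmeal mice 12, 13, 14, 16 and 20 the sum was 20.2, 13.0, 29.9, 19.1 and 15.6 CPM, and in the 6 salmon filet mice 13.7 as the lowest, 15.5 as the median and 25.4 CPM as the highest. Beef mice 32, 35, 39 and 40 stood at 33.6, 13.7, 14.8 and 14.1 CPM. Mouse 32 was thus more than 2 times as high as every other beef mouse, while the other beef mice lay close together. Mouse 2 had the highest level of its group in 18 of the 23 genes, mouse 14 in 20, salmon filet mouse 25 in 20 and mouse 32 in 20. The runners-up were highest in 4, 3, 3 and 2 genes. Against the median of the 20 mice, mouse 2 was above it in 22 genes, mouse 14 in 22, and mice 25 and 32 in all 23. The median gene stood at 2.06, 1.77, 1.53 and 1.73 times that level in mice 2, 14, 25 and 32. At the other end, fishmeal mouse 13 and salmon filet mouse 26 were above the median in 2 of 23 genes each. These mice were singled out by the values themselves, so the counts are a description without a test.

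**Figure D1:**
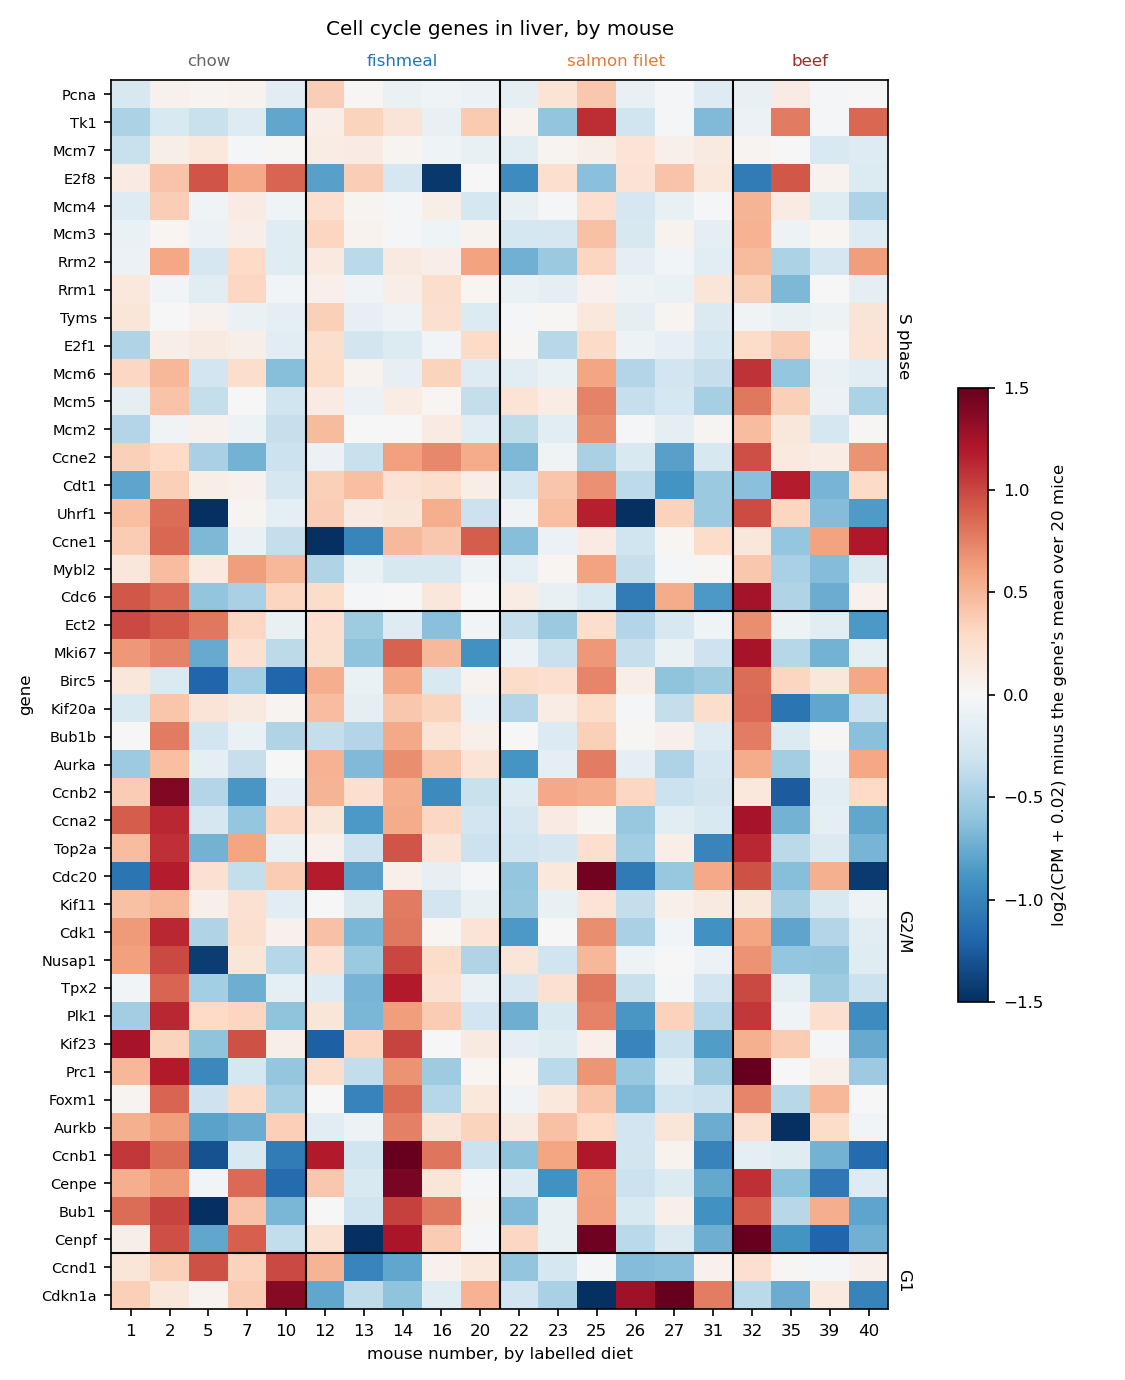
Heat map of the 44 genes (rows, by list and by mean level) in the 20 mice (columns, by labelled diet), as log2(CPM + 0.02) minus the mean of the gene over all mice, with red above and blue below that mean. Red columns run through most of the 23 G2/M genes in mice 2, 14, 25 and 32, one in each diet, while the S phase rows are paler.

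The spread was narrower for S phase genes. Summed over the 19 genes, CPM ran from 95.6 to 148 across the 20 mice, a ratio of 1.55, against a ratio of 2.57 for the G2/M sum. Per gene, the ratio of the highest to the lowest mouse had a median of 2.56 in the S phase list, from 1.45 for Mcm7 to 9.91 for Ccne1, and a median of 4.47 in the G2/M list, from 2.58 for the spindle motor Kif11 to 19 for Bub1. These ratios include counting noise, which is large in genes with few reads such as Bub1. The biological coefficient of variation from edgeR, which sets counting noise apart, had a median of 25.5% over S phase genes, 38% over G2/M genes and 19% over all genes tested. Phase and level were not separated here. A mean under 1 CPM was found in 18 of 23 G2/M genes and 5 of 19 S phase genes. Those 5 were at 45.2% (Uhrf1), 41.2% (Ccne1), 36.9% (Cdc6), 34.6% (Cdt1) and 16.6% (Mybl2). Mice 25 and 32 were also the highest of their groups in 13 and 11 of the 19 S phase genes. Mouse 14 was highest in 0 of the 19 S phase genes, while fishmeal mouse 12 was highest in 7, and chow-fed mouse 2 in 8. The same showed in the sum over the helicase genes Mcm2 to Mcm7, which was 41.2 CPM in mouse 32, 38.5 in mouse 25, 35.4 in mouse 12, 35.1 in mouse 2 and 30.8 in mouse 14, in a range of 26.1 to 41.2. In TPM the helicase sum of mouse 12 was 17.0, the lowest of the fishmeal mice. Its sum over the 19 S phase genes, 61.7 TPM, was also the lowest of them, so the rank of mouse 12 depended on the unit. The sum over all 19 S phase genes put the beef mice in another order, with 116 CPM in mouse 32, 130 in mouse 35, 101.4 in mouse 39 and 122 in mouse 40. It was 115 CPM in mouse 2, 148 in mouse 25 and 109 in mouse 14. Tk1 and E2f8 weighed on that order. Over the other 17 S phase genes the sum was 90.7 CPM in mouse 32, against 73.9, 70.3 and 73.5 in mice 35, 39 and 40. It was 83.5 CPM in mouse 2, 93.6 in mouse 25 and 75.3 in mouse 14. Mice 2 and 25 thus led their groups in the G2/M sum and in each sum of replication genes. By CPM, mouse 32 led in all of these but the sum over 19 genes, and mouse 14 in the G2/M sum only. In TPM the sum over 19 genes was 72.0 in mouse 32, above 67.8, 63.7 and 70.9 in mice 35, 39 and 40.

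**Figure D2:**
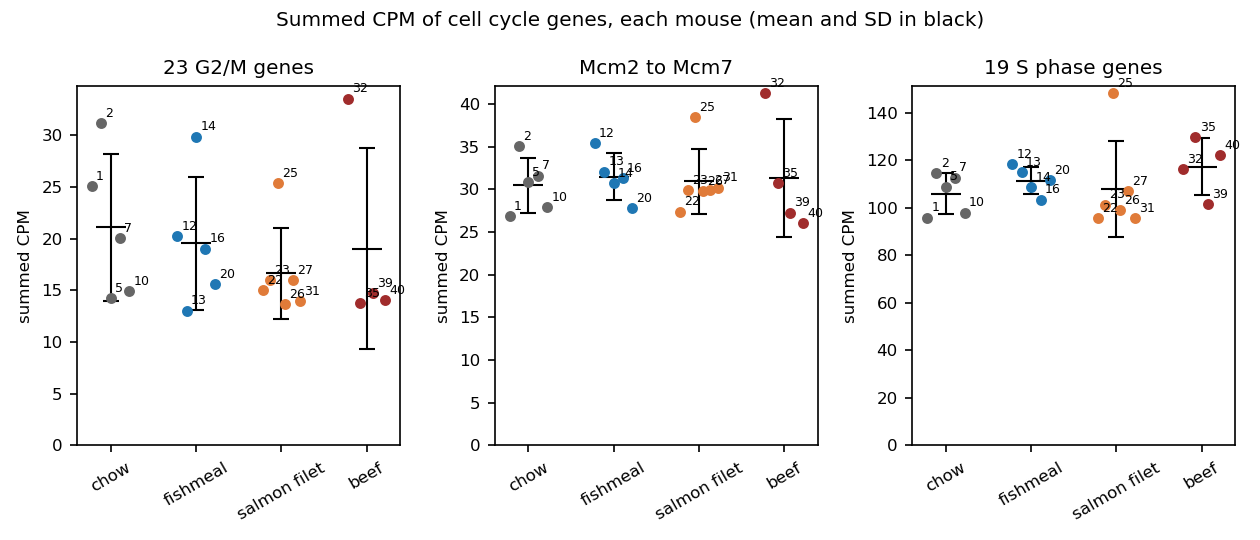
Summed CPM (y axis, from 0) of the 23 G2/M genes, of Mcm2 to Mcm7 and of the 19 S phase genes in each diet group (x axis), with 1 numbered point per mouse and the group mean and SD in black. In the G2/M panel mice 2 (31.2), 14 (29.9), 25 (25.4) and 32 (33.6 CPM) top their groups.

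Levels of T cell and B cell markers are given beside this pattern. The 7 T cell genes together reached 2.94 to 5.50 CPM in chow-fed and 1.3 to 3.47 CPM in HFD-fed mice, with 4.77 in mouse 2, 3.43 in mouse 14, 2.30 in mouse 25 and 3.47 in mouse 32. The 5 B cell genes reached 6.59 to 15.1 CPM in chow-fed and 2.75 to 6.66 CPM in HFD-fed mice, with 13.4, 3.33, 4.16 and 4.75 CPM in these 4 mice. Mice 14 and 32 were thus the highest HFD-fed mice for the T cell sum, and mouse 25 was not. The part of any cell type in the pattern was not tested.

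In the lists of levels that follow, chow-fed mice come in the order 1, 2, 5, 7 and 10, fishmeal mice in the order 12, 13, 14, 16 and 20, and beef mice in the order 32, 35, 39 and 40. Mki67 stood at 4.69, 5.02, 1.76, 3.50 and 2.27 CPM in the chow-fed mice and 3.52, 1.96, 5.54, 4.18 and 1.57 CPM in the fishmeal mice. It stood at 2.33, 2.59 and 4.69 CPM as the lowest, median and highest of the salmon filet mice and 7.03, 2.22, 1.81 and 2.68 CPM in the beef mice. The highest value of all, 7.03 CPM, belonged to mouse 32, and the 4 groups overlapped. Top2a, the topoisomerase that untangles sister chromosomes, was at 2.18, 3.38, 0.958, 2.38 and 1.45 CPM in the chow-fed mice and 1.65, 1.3, 3.03, 1.80 and 1.3 CPM in the fishmeal mice. Its values were 0.779, 1.29 and 1.88 CPM as the lowest, median and highest of the salmon filet mice and 3.47, 1.19, 1.3 and 0.961 CPM in the beef mice. Mice 2, 14 and 32 were all above 3 CPM and every other mouse was below 2.4 CPM. Cdk1, the kinase that starts mitosis, was at 1.1, 1.56, 0.505, 0.828 and 0.734 CPM in the chow-fed mice and 0.960, 0.430, 1.2, 0.717 and 0.810 CPM in the fishmeal mice, with 0.362, 0.587 and 1.15 CPM as the lowest, median and highest of the salmon filet mice and 1.07, 0.395, 0.511 and 0.620 CPM in the beef mice. Ccna2, cyclin A2, which acts in S phase and at the entry into mitosis, was at 1.47, 1.71, 0.645, 0.509 and 0.962 CPM in the chow-fed mice and 0.876, 0.416, 1.1, 0.962 and 0.630 CPM in the fishmeal mice. It was at 0.511, 0.667 and 0.842 CPM as the lowest, median and highest of the salmon filet mice and 1.84, 0.461, 0.696 and 0.440 CPM in the beef mice. Salmon filet mouse 25, high in most mitotic genes, was not high in Ccna2 (0.791 CPM). Ccnb1, cyclin B1, had 0.443, 0.377, 0.0697, 0.170 and 0.0874 CPM in the chow-fed mice and 0.488, 0.161, 0.613, 0.367 and 0.157 CPM in the fishmeal mice. It had 0.0906, 0.187 and 0.490 CPM as the lowest, median and highest of the salmon filet mice and 0.181, 0.176, 0.116 and 0.0801 CPM in the beef mice. Mouse 14 was the highest and mouse 32 was not raised. Ccnb1 shares 99.2% of 1287 bases with the pseudogene Ccnb1-ps, so its reads could be split. Foxm1, the factor that drives mitotic genes, was at 0.519, 0.935, 0.401, 0.616 and 0.350 CPM in the chow-fed mice and 0.505, 0.242, 0.912, 0.367 and 0.562 CPM in the fishmeal mice. It was at 0.310, 0.445 and 0.678 CPM as the lowest, median and highest of the salmon filet mice and 0.850, 0.373, 0.720 and 0.5 CPM in the beef mice. Its 3 highest mice were 2, 14 and 32, as for Top2a.

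Of the replication genes, Mcm2, a subunit of the helicase, was at 1.69, 2.21, 2.40, 2.19 and 1.80 CPM in the chow-fed mice and 3.20, 2.31, 2.30, 2.50 and 2.05 CPM in the fishmeal mice. It was at 1.76, 2.17 and 3.73 CPM as the lowest, median and highest of the salmon filet mice and 3.16, 2.59, 1.93 and 2.32 CPM in the beef mice. Mouse 25 stood apart from the other salmon filet mice. Mcm5, another subunit, was at 2.00, 2.97, 1.71, 2.19 and 1.78 CPM in the chow-fed mice and 2.39, 2.07, 2.37, 2.24 and 1.71 CPM in the fishmeal mice. It was at 1.56, 2.11 and 3.71 CPM as the lowest, median and highest of the salmon filet mice and 3.83, 2.83, 2.07 and 1.58 CPM in the beef mice. The highest mice were 32 and 25, and the groups overlapped. Pcna was at 17.8, 21.9, 21.6, 21.8 and 18.7 CPM in the chow-fed mice and 27.1, 21.3, 19.6, 20.1 and 19.8 CPM in the fishmeal mice. It was at 18.5, 20.1 and 27.9 CPM as the lowest, median and highest of the salmon filet mice and 19.4, 22.9, 20.6 and 21.1 CPM in the beef mice. Pcna varied little, and its 2 highest mice by CPM were 25 and 12. In TPM all fishmeal mice lay between 20.5 and 23.9 for Pcna. Rrm2, the regulated subunit of ribonucleotide reductase, was at 2.69, 4.30, 2.40, 3.52 and 2.52 CPM in the chow-fed mice and 3.17, 2.16, 3.15, 3.06 and 4.34 CPM in the fishmeal mice. It was at 1.72, 2.56 and 3.58 CPM as the lowest, median and highest of the salmon filet mice and 3.98, 2.04, 2.39 and 4.42 CPM in the beef mice. The highest were beef mouse 40, fishmeal mouse 20 and chow-fed mouse 2, only the last of which was among the mice high in mitotic genes. Ccne2, cyclin E2, which starts S phase with Cdk2, was at 1.3, 1.21, 0.697, 0.594 and 0.787 CPM in the chow-fed mice and 0.926, 0.778, 1.53, 1.64 and 1.46 CPM in the fishmeal mice. It was at 0.551, 0.765 and 0.947 CPM as the lowest, median and highest of the salmon filet mice and 1.95, 1.1, 1.07 and 1.58 CPM in the beef mice. As labelled, no salmon filet mouse reached the level of the lowest beef mouse, but with mouse 31 (0.833 CPM) as beef the ranges overlapped, since the highest salmon filet mouse was at 0.947 CPM. Mybl2, the B-Myb factor, was at 0.428, 0.525, 0.418, 0.594 and 0.542 CPM in the chow-fed mice and 0.269, 0.349, 0.315, 0.315 and 0.360 CPM in the fishmeal mice. It was at 0.292, 0.377 and 0.584 CPM as the lowest, median and highest of the salmon filet mice and 0.506, 0.264, 0.232 and 0.320 CPM in the beef mice. All chow-fed mice were at or above 0.418 CPM, a level reached by 2 of 15 HFD-fed mice, 25 and 32.

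Mouse 31, salmon filet by its label but beef by the column header and the study's group sizes, is given apart. Among mitotic genes it stood at 2.39 for Mki67, 0.779 for Top2a, 0.362 for Cdk1, 0.652 for Ccna2, 0.0906 for Ccnb1, 0.399 for Foxm1 and 1.61 for Ect2 CPM. Among replication genes it stood at 2.37 for Mcm2, 1.56 for Mcm5, 18.5 for Pcna, 2.55 for Rrm2, 0.833 for Ccne2, 0.380 for Mybl2 and 14.3 for Tk1 CPM. It was the lowest of the labelled group for Top2a, Cdk1, Ccnb1, Mcm5, Pcna and Tk1, and for the other 8 genes it lay inside the range of the other salmon filet mice. For Ccnd1 it was the highest of the labelled group, at 76.5 CPM. With mouse 31 as beef, Ccnd1 ran from 46.7 to 71.5 CPM on salmon filet and from 71.7 to 87.0 CPM on beef. These ranges just lay apart, and the share of all genes for which they do was not counted.

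The first comparison set the HFD-fed mice, over all protein sources, against the chow-fed mice. Of the 44 genes, 2 were called at an adjusted p under 0.05, both lower in HFD-fed mice: Ect2 and Ccnd1. Among all 17120 genes tested, 9.75% were called and 5.21% were called lower. The 2 calls among 44 genes were near the share called lower and too few to set the members apart from the whole table. All 44 genes passed the filter on low counts. The test was the quasi-likelihood F-test of edgeR, adjusted over all genes tested by the method of Benjamini and Hochberg. In none of the 44 genes did the CPM ranges of the 5 chow-fed and 15 HFD-fed mice lie apart, against 1.64% of all genes. Of the 19 S phase genes, 0 were called by edgeR, by DESeq2 or by limma voom, and 3 had an unadjusted p under 0.05. The median log2 fold change was 0.02 over S phase genes, with 12 above and 7 below 0, and -0.11 over G2/M genes, with 4 above and 19 below 0. Over all genes tested the median was 0.005. Without chow-fed mouse 2, the median over G2/M genes was 0.16, so its sign rested on that mouse.

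**Figure D3:**
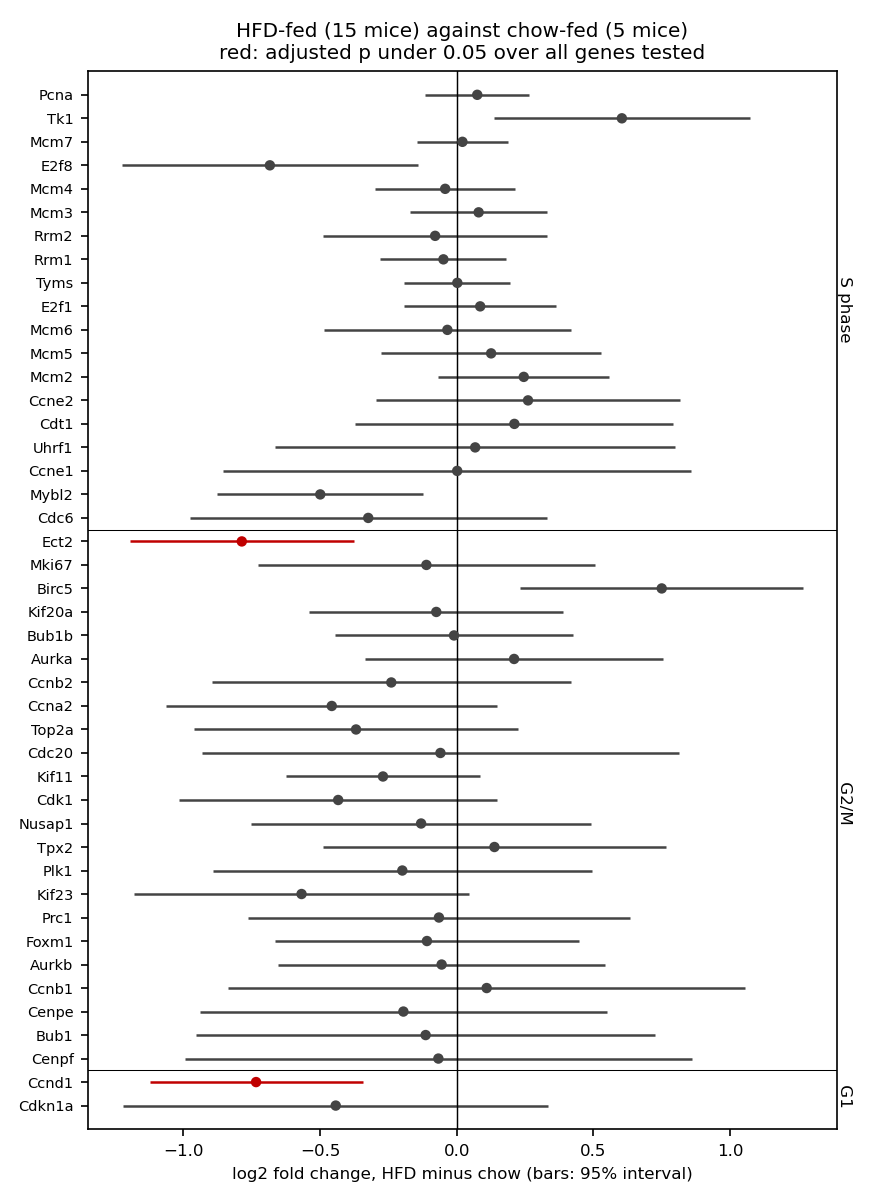
Log2 fold change of HFD-fed (15) against chow-fed mice (5) for each of the 44 genes (x axis), with bars for the 95% interval and red for an adjusted p under 0.05. Only Ect2 (-0.79) and Ccnd1 (-0.73) are red, and the bars of the G2/M genes are wider than those of most S phase genes.

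Intervals show what the data could and could not resolve. For Mcm7 the log2 fold change was 0.02 (95% interval -0.15 to 0.19), for Tyms, thymidylate synthase, 0.002 (-0.19 to 0.20) and for Pcna 0.07 (-0.12 to 0.27), so changes beyond those bounds lay outside the interval. For Ccnb1 the interval ran from -0.84 to 1.06 and for Cenpf from -0.99 to 0.86, so large changes of these genes in either direction lay inside the interval. The fold change of Mki67 was -0.11 (SE 0.30, adjusted p = 0.864), of Top2a -0.37 (SE 0.29, adjusted p = 0.464) and of Cdk1 -0.43 (SE 0.28, adjusted p = 0.365). It was -0.46 (SE 0.29, adjusted p = 0.358) for Ccna2, -0.11 (SE 0.27, adjusted p = 0.851) for Foxm1 and 0.11 (SE 0.46, adjusted p = 0.917) for Ccnb1. Those of the replication genes were 0.25 (SE 0.15, adjusted p = 0.336) for Mcm2, 0.13 (SE 0.19, adjusted p = 0.749) for Mcm5 and -0.08 (SE 0.20, adjusted p = 0.854) for Rrm2. Ccne2 stood at 0.26 (SE 0.27, adjusted p = 0.598) and Mybl2 at -0.50 (SE 0.18, adjusted p = 0.0859). Mybl2 missed the threshold and passed it without mouse 25 (adjusted p = 0.0364). Near the threshold, on opposite sides of 0, were also Birc5, a protein of the chromosomal passenger complex also called survivin, at 0.75 (SE 0.25, adjusted p = 0.0585), and E2f8 at -0.68 (SE 0.26, adjusted p = 0.102). Birc5 was called by DESeq2 (0.755, adjusted p = 0.0236), among 11.6% of genes. E2f8 was at 9.42, 11.7, 16.7, 12.9 and 15.9 CPM in the chow-fed mice and 4.93, 11.2, 7.26, 3.17 and 8.63 CPM in the fishmeal mice, with 4.50, 9.88 and 11.7 CPM as the lowest, median and highest of the salmon filet mice and 4.19, 16.6, 8.98 and 7.55 CPM in the beef mice. Mouse 35, at 16.6 CPM, was the one HFD-fed mouse among the higher chow-fed values. On the other strand Gm2788 shares 610 exonic bases with E2f8, or 11.2% of its exons. Gm2788 was at 81.8 ± 22.7 CPM in chow-fed (SD, n = 5) and 60.8 ± 18.7 CPM in HFD-fed mice (n = 15). Its log2 fold change was -0.43 (SE 0.20, adjusted p = 0.2 in edgeR). Whether its reads entered the counts of E2f8 was not tested.

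The members not yet given lay close to 0 or had wide errors, and none was called. Of the S phase genes, Rrm1, the large subunit of ribonucleotide reductase, stood at -0.05, the helicase genes Mcm3, Mcm4 and Mcm6 at 0.08, -0.04 and -0.03, and Uhrf1, which keeps DNA methylation through replication, at 0.07. The loaders Cdc6 and Cdt1 stood at -0.32 and 0.21, and E2f1 and Ccne1 (cyclin E1) at 0.09 and 0.0015. Of the G2/M genes, Kif23, a motor of the midbody, was lowest at -0.57 (adjusted p = 0.245), and Kif11 and the cyclin gene Ccnb2 stood at -0.27 and -0.24. The kinase genes Plk1, Aurka and Aurkb stood at -0.20, 0.21 and -0.06. The spindle genes Cenpe, Nusap1, Kif20a, Prc1 and Tpx2 stood between -0.20 (Cenpe) and 0.14 (Tpx2), and the checkpoint genes Bub1, Bub1b and Cdc20 between -0.11 (Bub1) and -0.01 (Bub1b).

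Ect2 (chromosome 3, 27097222 to 27153878, minus strand, GRCm38), whose product activates RhoA for the cleavage of dividing cells, fell in HFD-fed mice. It stood at 3.36, 3.21, 2.93, 2.10 and 1.56 CPM in the chow-fed mice and 2.00, 1.15, 1.48, 1.08 and 1.64 CPM in the fishmeal mice. The other groups had 1.1, 1.38 and 2.04 CPM as the lowest, median and highest of the salmon filet mice and 2.75, 1.60, 1.51 and 0.921 CPM in the beef mice. Chow-fed mice 1, 2 and 5 were above every HFD-fed mouse, while chow-fed mice 7 and 10 lay within the range of the HFD-fed mice. The mean was 2.63 ± 0.774 CPM in chow-fed (SD, n = 5) and 1.53 ± 0.462 CPM in HFD-fed mice (n = 15). The log2 fold change was -0.79 (SE 0.20, adjusted p = 0.0137) in edgeR. Without chow-fed mouse 1 the adjusted p was 0.0664, without mouse 2 it was 0.0533, and it stayed under 0.05 without any other mouse. Its promoter, printed above, held 2 CHR matches and 3 CCAAT boxes. Sums of T and B cell markers, given above, were lower in HFD-fed mice too, and their part in the fall of Ect2 was not tested.

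Ccnd1 (chromosome 7, 144929931 to 144939925, minus strand), the cyclin that carries growth signals into the cell cycle, also fell. It was at 82.7, 93.8, 142, 93.0 and 145 CPM in the chow-fed mice and 104, 36.8, 42.7, 76.7 and 81.5 CPM in the fishmeal mice. It was at 46.7, 54.6 and 76.5 CPM as the lowest, median and highest of the salmon filet mice and 87.0, 73.7, 71.7 and 76.8 CPM in the beef mice. Chow-fed mice 5 and 10 were far above the rest, and by CPM fishmeal mouse 12 exceeded the other 3 chow-fed mice. In TPM the highest fishmeal value was 45.9, near the low end of the chow-fed range of 43.5 to 79.4. The mean was 111 ± 29.5 CPM in chow-fed and 66.8 ± 18.9 CPM in HFD-fed mice, which is -0.73 (SE 0.19, adjusted p = 0.0151) on the log2 scale. The adjusted p was 0.0557 without chow-fed mouse 5 and 0.0545 without mouse 10. On the other strand LTO1 shares 1100 bases with Ccnd1, or 23.4% of its exons, and stood at -0.02 in the same comparison (adjusted p = 0.901). Cdkn1a, which holds cells in G1 and answers to p53, was at 15.2, 13.3, 12.3, 15.5 and 30.5 CPM in the chow-fed mice and 6.92, 9.13, 7.82, 10.5 and 17.0 CPM in the fishmeal mice. It was at 3.64, 15 and 34.4 CPM as the lowest, median and highest of the salmon filet mice and 8.98, 7.07, 13.1 and 5.90 CPM in the beef mice. High values were scattered over mouse 10 on chow (30.5 CPM) and salmon filet mice 26, 27 and 31 (28.7, 34.4 and 20.3 CPM). Between HFD and chow it stood at -0.44 (SE 0.38, adjusted p = 0.51) and was not called.

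**Figure D4:**
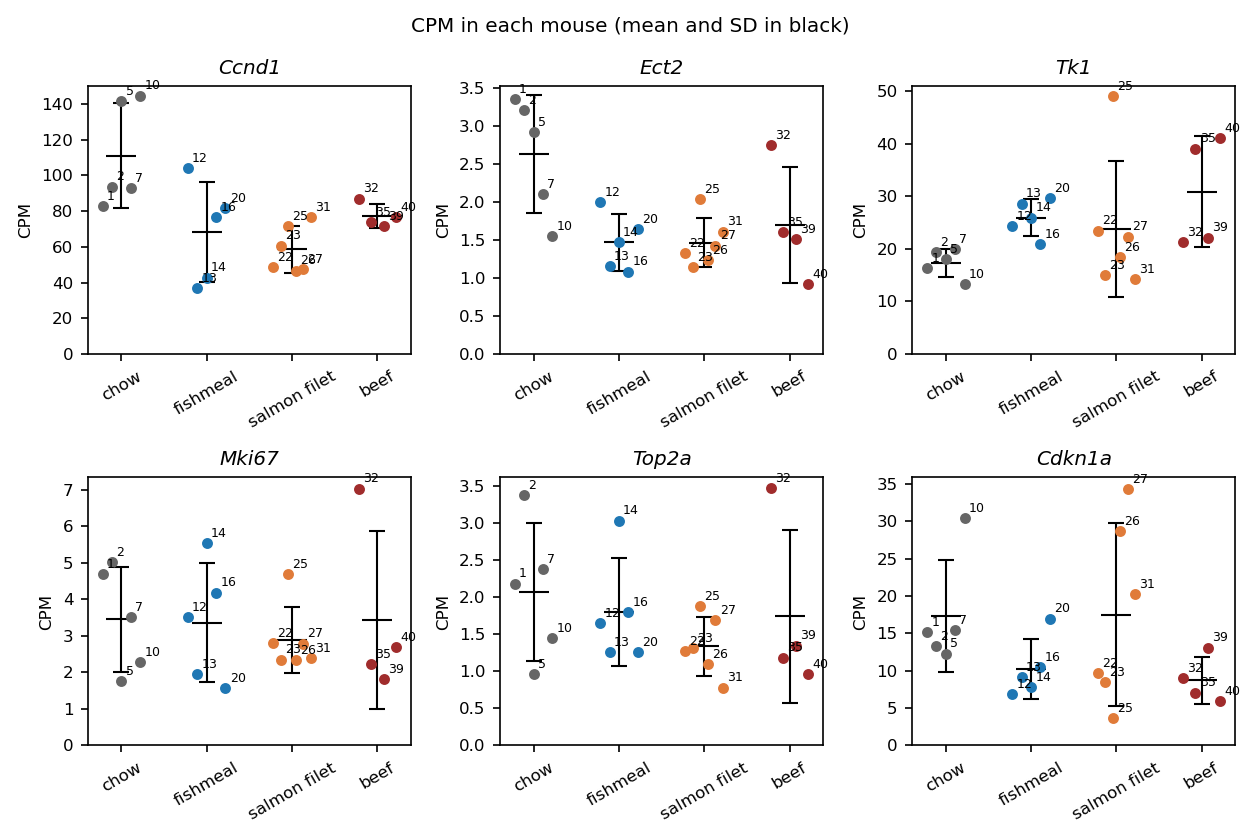
CPM (y axis, from 0) of Ccnd1, Ect2, Tk1, Mki67, Top2a and Cdkn1a in each diet group (x axis), with 1 numbered point per mouse and the mean and SD in black. Ccnd1 and Ect2 are highest on chow with groups that overlap, and in Mki67 and Top2a mouse 32 stands above the other beef mice.

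Tk1 (chromosome 11, 117815526 to 117826092, minus strand), which recycles thymidine for DNA synthesis, was called by edgeR in the comparison of fishmeal with chow and in no other. It was at 16.3, 19.3, 18, 19.9 and 13.2 CPM in the chow-fed mice and 24.3, 28.6, 25.9, 20.9 and 29.7 CPM in the fishmeal mice. It was at 14.3, 20.4 and 49.0 CPM as the lowest, median and highest of the salmon filet mice and 21.3, 39.1, 22.1 and 41.0 CPM in the beef mice. The lowest fishmeal mouse (20.9 CPM) was just above the highest chow-fed mouse (19.9 CPM), in a gene named for its call in that comparison. The share of all genes whose fishmeal and chow ranges lie apart was not counted. Mice 25, 35 and 40 were at 39.1 CPM or more. The log2 fold change was 0.60 (SE 0.23, adjusted p = 0.0946) for all HFD-fed mice and 0.57 (SE 0.13, adjusted p = 0.0352) for fishmeal against chow. On leaving out each mouse in turn, the adjusted p of the latter was 0.0214 to 0.0937, and 3 of 10 fits kept the call. Mice high in Tk1 were not those high in mitotic genes, apart from mouse 25: mouse 32 was at 21.3 CPM. Afmid, the next gene, on the other strand, shares 83 exonic bases with Tk1 and was also highest in mice 35 and 25 (66.8 and 64.4 CPM), and stood at 0.09 (adjusted p = 0.687) between HFD and chow. Birc5 starts 9342 bases beyond Afmid.

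Genes of the circadian clock moved with the diet and are given beside these results. A clock score was taken as the mean log2 CPM of 8 evening genes (Dbp, Tef, Hlf, Nr1d1, Nr1d2, Per2, Per3 and Ciart) minus that of 5 morning genes (Arntl, Npas2, Clock, Cry1 and Nfil3). Of these, 8 of 8 were called higher and 2 of 5 lower in HFD-fed mice. The score was -2.70 to -0.79 in chow-fed and -1.80 to 3.63 in HFD-fed mice, so the groups overlapped only in part. With the score as a covariate, 0 of the 44 genes were called and 1.71% of all genes. The log2 fold changes were then -0.77 for Ect2 (adjusted p = 0.203), -0.89 for Ccnd1 (adjusted p = 0.0757) and -0.03 for Tk1 (adjusted p = 0.988). The difference of Tk1 was thus near 0 in that fit, and those of Ect2 and Ccnd1 were about as large as before. Chow-fed mice held the low end of the score, and the hour of killing is not given in the sources used here, so diet and clock phase cannot be told apart.

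**Figure D5:**
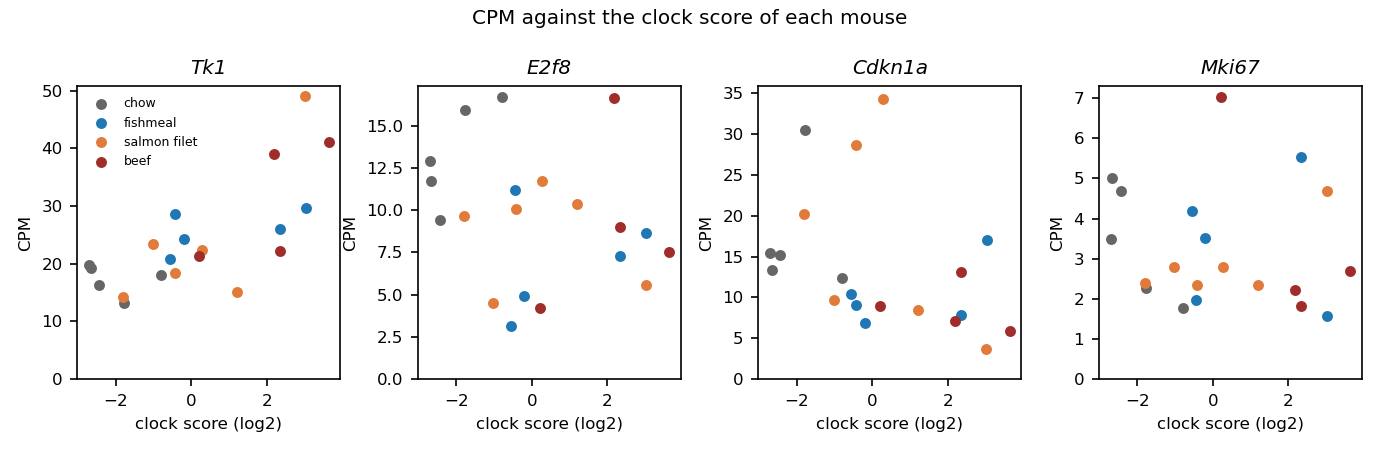
CPM (y axis, from 0) of Tk1, E2f8, Cdkn1a and Mki67 against the clock score (x axis, log2 units, evening minus morning genes) with 1 point per mouse, coloured by diet. The highest Tk1 values, 49.0, 41.0 and 39.1 CPM, are in mice 25, 40 and 35, all of high score. Mice 14 and 39, both at a score of 2.34, have 25.9 and 22.1 CPM of Tk1. The highest Mki67 value (7.03 CPM) is in mouse 32, at a score of 0.21.

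The next comparisons set each protein source against chow. They share the same 5 chow-fed mice and are given side by side. Fishmeal against chow called 1 of 44 genes (Tk1, higher), where 3.38% of all genes were called and 1.44% were called higher. DESeq2 called 3 (Tk1, E2f8 and Ect2), among 6.32% of genes. Salmon filet called 2 of 43 tested genes (Ect2 and Ccnd1, both lower), where 4.46% of all genes were called and 2.32% were called lower. DESeq2 called 3 (Kif23, Ect2 and Ccnd1), among 8.55% of genes. Beef called 0 of 43 genes in edgeR, where 2.48% were called. In the beef comparison 5 genes had an unadjusted p under 0.05, and DESeq2 called 3 (Tk1, Birc5 and Cdkn1a), among 6.66% of genes. Bub1 and Ccnb1 were the genes that did not pass the filter, for salmon filet and beef respectively. The log2 fold change of Ect2 was -0.85 (SE 0.24, adjusted p = 0.0776) for fishmeal, -0.84 (SE 0.21, adjusted p = 0.042) for salmon filet and -0.64 (SE 0.31, adjusted p = 0.316) for beef. For Ccnd1 the 3 values were -0.71 (SE 0.27, adjusted p = 0.19), -0.92 (SE 0.18, adjusted p = 0.0156) and -0.53 (SE 0.18, adjusted p = 0.148). For Tk1 the values were 0.57 (SE 0.13, adjusted p = 0.0352), 0.46 (SE 0.27, adjusted p = 0.35) and 0.83 (SE 0.21, adjusted p = 0.0688). The call of Ect2 on salmon filet was kept in 2 of 11 fits that left out 1 mouse, and that of Ccnd1 in 11 of 11. Tk1 on beef was called without mouse 32 (0.97, adjusted p = 0.0273). The fold changes of each gene had 1 sign in all 3 diets, but with the clock score as a covariate Ect2 on beef stood at 0.54 and Tk1 on salmon filet at -0.17. That a gene was called for 1 diet and not for another does not show that the diets differ, and none of these genes was called between diets.

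With mouse 31 counted as beef, salmon filet called 1 gene, Ccnd1, at -1.01 (SE 0.18, adjusted p = 0.0157), where 4.42% of all genes were called. Ect2 then stood at -0.87 (SE 0.23, adjusted p = 0.0528). Beef called 0 of 43 genes in edgeR also in that setting, where 3.05% were called, with 5 genes at an unadjusted p under 0.05. In it, Tk1 stood at 0.66 (SE 0.25, adjusted p = 0.187).

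The last comparisons set the protein sources against each other. None of the 44 genes was called between fishmeal and salmon filet (0.157% of all genes called), between fishmeal and beef (0.00607%) or between salmon filet and beef (0%) by edgeR, nor by limma voom. DESeq2 called none of them either, among 0.454%, 0.137% and 0.00347% of all genes. At an unadjusted p under 0.05 stood 1, 1 and 2 genes. Between fishmeal and salmon filet this was Ccne2, at 0.76 (SE 0.23, adjusted p = 0.685). Between fishmeal and beef it was Ccnb1, at 1.352 (SE 0.49, adjusted p = 1). Between salmon filet and beef Ccne2 stood at -0.93 (SE 0.22, adjusted p = 1) and Ccnd1 at -0.39 (SE 0.15, adjusted p = 1). Ccne2 was at 0.746 ± 0.152 CPM on salmon filet (SD, n = 6), 1.3 ± 0.388 CPM on fishmeal (n = 5) and 1.42 ± 0.423 CPM on beef (n = 4). With mouse 31 as beef, the means were 0.729 ± 0.163 CPM on salmon filet (n = 5) and 1.307 ± 0.452 CPM on beef (n = 5). On the other strand Ints8 covers 17.4% of the exons of Ccne2 and was itself lower in HFD-fed mice (log2 fold change -0.34, adjusted p = 0.0137). With mouse 31 as beef, 0 of the tested genes were called by edgeR in these 3 comparisons too, with 1, 0 and 2 at an unadjusted p under 0.05, among 0.17%, 0.0245% and 0% of all genes called.

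Other genes of the cell cycle were taken from a list of 82 symbols, of which 81 were in the table and 78 were tested. Between HFD and chow 3 were called higher and 1 lower, 4 of 78 in all, beside 9.75% of all genes called. So few calls do not set this list apart from all genes. Spc25, a subunit of the kinetochore complex that holds microtubules, rose by 1.02 on the log2 scale (SE 0.16, adjusted p = 2.3e-04). Gmnn, geminin, which blocks Cdt1, rose by 0.47 (SE 0.11, adjusted p = 0.00765). The gene that fell was Cdc25a, a phosphatase that activates cyclin-dependent kinases, at -0.37 (SE 0.11, adjusted p = 0.0298). The median over the 78 genes was 0.02. Of 14 p53 target genes tested beside Cdkn1a, 1 was called, a share near that of all genes. It was Plk2, a kinase of the Polo family, which fell (-0.60, SE 0.11, adjusted p = 0.0016).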

How the data were processed

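RNA of 20 mouse livers was sequenced from strand-specific TruSeq libraries. Per the labels and the methods of the study, the authors trimmed reads with BBDuk, aligned them with HISAT2 1.2.1 and made the deposited counts per gene with featureCounts 1.4.6-p1. The strand setting of the counting is not given in the sources used here. The deposited TPM values (scaled to transcript length and library size) were made by the authors and served for levels between genes. From the counts, genes were filtered with filterByExpr (minimum count 10), scaled by TMM and tested with edgeR 4.0 in R 4.3 (quasi-likelihood F-test, Benjamini-Hochberg adjustment over all genes tested, threshold 0.05), with DESeq2 1.42 and limma 3.58 as alternatives. CPM on the log scale had a prior count of 2. Columns of per-sample values that were not used numbered 0. The steps were tested on simulated counts with the same spread for every gene, which does not show their power for these members. The 44 members, the lists of other cell cycle genes, p53 targets, clock genes and cell markers, and the tests were chosen with earlier results of these data known. Values by mouse (for the 6 salmon filet mice, the lowest, median and highest) were given for a set list of 14 well-known members and for every member called in any of the 7 comparisons. Other members were named where they were lowest or highest of a list, other cell cycle genes and p53 targets where called, and remaining genes after their values were seen. One other cell cycle gene that was called is not reported here. Gene positions are from GENCODE M21 (GRCm38), and similar transcripts were found with blastn. Precision is limited by counts as low as 1 read per library.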

Additional observations from a re-analysis of the deposited data

Results flagged for a closer look

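In 11 of 72 groups of 4 to 6 mice looked at, 1 mouse stood apart from the others of its diet by Dixon's criterion. For normally distributed values chance gives about 1 in 20 groups. CPM was used here without transformation, so the count is not read against that rate. In salmon filet mouse 25, levels were 3.73 CPM for Mcm2 (next mouse 2.37), 4.69 CPM for Mki67 (next 2.80), 0.584 CPM for Mybl2 (next 0.386) and 49.0 CPM for Tk1 (next 23.4). The same mouse had a sum of 148 CPM over the S phase genes (next 107) and of 25.4 CPM over the G2/M genes (next 16.0). In beef mouse 32, Mki67 was at 7.03 CPM (next 2.68), Top2a at 3.47 CPM (next 1.3) and the G2/M sum at 33.6 CPM (next 14.8). Chow-fed mouse 10 had 30.5 CPM of Cdkn1a (next 15.5), and fishmeal mouse 12 had 27.1 CPM of Pcna (next 21.3). In TPM all fishmeal mice lay between 20.5 and 23.9 for Pcna, so this flag depended on the unit. The genes are not independent of each other, so several of these values describe the same mouse.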

How the results depend on the processing

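No paired analysis was possible because mouse numbers are unique and are shared by no groups. With the clock score as a covariate, the cell cycle members called fell to 0 for HFD, 0 for fishmeal and 0 for salmon filet against chow, and other cell cycle genes called from 4 to 1. With DESeq2, 3 members were called for fishmeal and 3 for beef. Fitted on all 4 groups, 0 were called for fishmeal and 1 for salmon filet. Salmon filet gave 1 with limma voom and 1 with mouse 31 as beef, and beef gave 1 over all genes with at least 1 count. Leaving out each mouse in turn, 1 to 3 members were called for HFD, 0 to 2 for fishmeal, 1 to 2 for salmon filet, 0 to 1 for beef, and 3 to 6 other cell cycle genes. The median fold change (log2) was then 0.0033 to 0.097 over S phase genes and -0.26 to 0.16 over G2/M genes. Signs turned for Mki67 (-0.28 to 0.065), Foxm1 (-0.24 to 0.15), Rrm2 (-0.16 to 0.070) and Ccnb1 (-0.12 to 0.50) on leaving out 1 mouse. Ccnb1 was also at -0.041 when fitted on all 4 groups. Under the clock covariate signs turned for Mki67 (0.023), Ccnb1 (-0.042), Pcna (-0.027), Ccne2 (-0.014), Cdkn1a (0.13) and Tk1 (-0.026) for HFD, for Tk1 on salmon filet (-0.17) and for Ect2 on beef (0.54). The cause was not tested. The clock slope among HFD-fed mice, an analysis chosen after seeing the data, called 1 member, but 0 without the filter, 0 with limma voom, and 0 to 1 on leaving out each mouse. No diet pair called a member under any alternative. Low counts of the mitotic genes and 4 to 6 mice per diet limit what could be resolved.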

Other observations

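Among the 15 HFD-fed mice, levels were also fitted on the clock score without diet as a term, an analysis chosen after seeing the data. Tk1 was the 1 member called, among 1.48% of all genes, with a slope of 0.21 log2 units per unit of score (SE 0.05, adjusted p = 0.0453 in edgeR). It was not called with limma voom (adjusted p = 0.0702). The slopes of 14 of 19 S phase genes and 19 of 23 G2/M genes were above 0, as were those of 8290 of all 16795 genes tested, and no member but Tk1 was called. The G2/M genes were high together in single mice, so their signs are not separate observations. Of the HFD-fed mice high in these genes, 14 and 25 had scores of 2.34 and 3.02, and mouse 32 had 0.21.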
